A study of Mus musculus with 10 samples.

Results

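The transcripts of 5 chemokine genes, Cxcl1, Cxcl2, Cxcl3, Cxcl16 and Ccl20, were examined in primary cultures of mouse tongue epithelium. They were taken by symbol from a bulk RNA-seq table of 18586 genes, and all 5 were found in it. Cells of the EY genotype carried Krt14-CreERT, LSL-rtTA and tetON_H2B-GFP together with tetON_E6-E7, the papillomavirus oncogenes that act on p53 and RB, and tetON_YAP1S127A, a YAP1 that escapes Hippo inhibition. Cells of the N genotype carried Krt14-CreERT, LSL-rtTA and tetON_H2B-GFP alone. In both genotypes Cre was driven by the Krt14 promoter of basal epithelial cells and activated by tamoxifen, cells were isolated 15 days after induction, and GFP-positive cells were kept in culture, with doxycycline per the study's methods. The transgenic mice of the study were littermates aged 8 to 16 weeks, per its methods. Sequencing was performed on 6 EY libraries, 2 from each of the lines EY3960, EY4028 and EY4174, and on 4 N libraries that all came from the line N4172. Genotype and line therefore cannot be told apart for N, and p-values over libraries of the same line measure only the spread between these samples.

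Chemokines are small secreted proteins that steer leukocytes along concentration gradients through receptors coupled to G proteins. CXCL1, CXCL2 and CXCL3 bind CXCR2 and recruit neutrophils. CXCL16 is made as a membrane protein that is shed by ADAM10 and ADAM17 and attracts T cells and natural killer T cells through CXCR6, and CCL20 attracts CCR6-bearing lymphocytes and dendritic cells. Epithelial cells transcribe several of these genes rapidly after signals such as TNF, interleukin-1 and interleukin-17, largely through NF-kB.

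The promoters are shown because the 3 CXCR2 ligands, whose levels are compared below, share a short NF-kB element close to their start sites. RefSeq entries of the mouse build GRCm38.p6 were found for 4 of the 5 members, with none for Cxcl16. Each stretch has 120 bases and ends 30 bases before the RefSeq start, on the plus strand. The stretches lie at chr5:90891095-90891214 for Cxcl1, chr5:90903749-90903868 for Cxcl2, chr5:90785951-90786070 for Cxcl3 and chr1:83116616-83116735 for Ccl20. They lie upstream of their genes and overlap no annotated exon. Capitals mark GGAATTTCC in the CXC genes and the overlapping matches to GGGNNNNNCC in Ccl20.
Cxcl1: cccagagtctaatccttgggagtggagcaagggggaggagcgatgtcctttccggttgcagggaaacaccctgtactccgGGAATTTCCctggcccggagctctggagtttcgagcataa
Cxcl2: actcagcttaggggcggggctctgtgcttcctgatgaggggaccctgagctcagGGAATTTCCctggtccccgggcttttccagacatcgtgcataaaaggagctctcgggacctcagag
Cxcl3: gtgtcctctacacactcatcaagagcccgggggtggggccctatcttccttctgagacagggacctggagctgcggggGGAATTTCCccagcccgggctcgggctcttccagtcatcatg
Ccl20: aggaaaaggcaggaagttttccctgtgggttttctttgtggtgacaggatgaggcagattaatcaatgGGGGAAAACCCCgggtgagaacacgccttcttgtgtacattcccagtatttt

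The motif GGAATTTCC was found 70 to 62 bases before the start of Cxcl1, 96 to 88 before Cxcl2 and 72 to 64 before Cxcl3. Over both strands of the 250 bases before the start, 94 of 32851 RefSeq promoters (0.286%) held it. The looser NF-kB pattern GGGNNNNNCC, which overlaps the shorter motif in the 3 CXC promoters, matched in all 4 promoters of the members and in 15046 (45.8%) of all promoters. In Ccl20 its matches spanned 82 to 71 bases before the start. The TEAD core GGAATG, the element through which YAP is recruited to DNA, was found in Cxcl3, 245 to 240 bases before the start, and on the minus strand of Ccl20, 45 to 40 bases before it. It occurred in 12.6% of all promoters. The AP-1 element TGANTCA, held by 6.75% of promoters, had no match in the 4 windows. These matches describe letters and are not evidence of binding.

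Coding sequence is shown because near-identical genes can exchange reads. From GENCODE M21 transcripts of GRCm38, a stretch of 60 coding bases is given for the 3 CXCR2 ligands, with capitals at bases that differ from Cxcl1. It spans coding bases 138 to 197 of Cxcl1 and 147 to 206 of Cxcl2 and Cxcl3.
Cxcl1: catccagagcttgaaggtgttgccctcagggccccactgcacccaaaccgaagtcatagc
Cxcl2: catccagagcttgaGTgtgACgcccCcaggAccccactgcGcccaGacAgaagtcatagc
Cxcl3: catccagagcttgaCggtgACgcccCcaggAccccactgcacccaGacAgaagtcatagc

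In this stretch 51 bases are the same in all 3 genes. Cxcl2 differs from Cxcl1 at 9 bases and Cxcl3 at 7. The coding sequences were also aligned in full, and identity was taken over the aligned bases, with gaps left out. By this measure Cxcl2 and Cxcl3 were 91.4% identical, with a longest identical run of 98 bases. Cxcl1 was 80.5% identical to Cxcl2 and 75.6% to Cxcl3, with longest runs of 21 and 22 bases. Of the 986 stretches of 31 bases in the Cxcl3 transcript, 80 (8.11%) also occur in Cxcl2, whereas 0 of 923 in Cxcl1 occur in any other gene. The levels of Cxcl2 and Cxcl3 are uncertain to the extent that their reads were divided between them. In Cxcl16, 522 of 2669 stretches (19.6%) also belong to Zmynd15, its neighbor on chromosome 11, which was listed at no more than 1.68 TPM in any library. Of the 1387 stretches in Ccl20, 0 were shared.

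Values are TPM as deposited, a transcript abundance that scales reads by transcript length and library and keeps no depth, so that the depth of the libraries and any counting interval are unknown. Between 10852 and 11522 genes per library had at least 1 TPM. Epithelial markers were present throughout. The 6 listed genes, mostly Krt5 and Krt14, summed to 4189 to 7154 TPM in EY and 5161 to 5865 TPM in N. Trp63 was lower in EY, at 46.0 to 60.5 TPM against 70.8 to 99.9 TPM in N. Epcam was higher in EY, at 53.1 to 63.3 TPM against 29.3 to 38.3 TPM in N. The groups did not overlap for these genes, nor for 20.4% of all tested genes, but did for Krt5, Krt14, Cdh1 and Itga6. The fourth N library stood apart from the other N libraries for several genes described here, and the members' results against N are also given without it, as are those of other genes that it moved by over 1.5 times or that it was apart in. Markers of leukocytes also moved in part with genotype. The 5 of 8 neutrophil markers in the table summed to 17.2 to 81.7 TPM in EY and 1.80 to 10.3 TPM in N. Most of this was S100a8 and S100a9, which keratinocytes also express, at 5.54 to 34.9 and 6.93 to 44.9 TPM in EY and 0.600 to 2.82 and 0.360 to 5.92 TPM in N. Ly6g was at 0.131 to 1.16 TPM in EY and 0 to 1.26 TPM in N, and Cxcr2 at 0.709 to 1.14 and 0.343 to 0.879 TPM. The neutrophil receptor Csf3r did not exceed 0.122 TPM in EY and 0.0684 TPM in N, and Mpo, Elane and Retnlg were not analysed here. The leukocyte marker Ptprc did not exceed 0.347 TPM in EY and 0.171 TPM in N, and the 4 of 10 macrophage and lymphocyte markers in the table, mostly Cd68, summed to 33.9 to 83.3 TPM in EY and 48.8 to 73.5 TPM in N. The 4 of 9 fibroblast and endothelial markers in the table summed to at most 0.879 TPM. The part of these differences in the chemokine levels was not tested.

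Cxcl1 was the highest of the 5 chemokines in every library, and it was higher in EY. In TPM, its level was 784 and 770 in EY3960, 939 and 937 in EY4028, 739 and 647 in EY4174, and 219, 221, 238 and 182 in the 4 N libraries. All 6 EY libraries lay above all 4 N libraries, and the lowest EY library was far above the highest N library. Means were 803 ± 115 TPM over the EY libraries (SD, n = 6) and 215 ± 23.2 TPM over the N libraries (SD, n = 4), a ratio of 3.73. On the log2(TPM + 1) scale, on which all differences below are given, EY was higher by 1.89 ± 0.11 (SE, 95% interval 1.64 to 2.14, limma adjusted p 9.35e-07). Over all tested genes, 1.17% had a larger absolute difference. Without the fourth N library, the difference was 1.81 (limma adjusted p 5.95e-06). In a bulk sample, fewer expressing cells and less RNA per cell cannot be told apart.

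Cxcl16, the chemokine made as a membrane protein, followed the same order of genotypes at a lower level. The EY libraries had 145 and 151 TPM in EY3960, 156 and 158 TPM in EY4028, and 134 and 149 TPM in EY4174. In N it was listed at 44.7, 44.5, 49.1 and 62.9 TPM. Again no EY library overlapped with N. Means were 149 ± 8.68 TPM over EY (SD, n = 6) and 50.3 ± 8.68 TPM over N (SD, n = 4), a ratio of 2.96 and a difference of 1.56 ± 0.10 (SE, 95% interval 1.344 to 1.77, limma adjusted p 1.24e-06). Without the fourth N library, which held the highest N value, it was 1.67 (limma adjusted p 3.19e-07). The proteases that shed CXCL16 did not pass the test, with differences of -0.13 for Adam10 (limma adjusted p 0.400) and -0.07 for Adam17 (limma adjusted p 0.587), the latter at -0.11 without the fourth N library (limma adjusted p 0.411).

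Ccl20, the ligand of CCR6, was listed in EY only. Its level was 7.66 and 6.35 TPM in EY3960, 7.57 and 6.65 TPM in EY4028, and 3.28 and 4.79 TPM in EY4174, whereas the 4 N libraries were each listed at 0. The groups did not overlap, and the mean in EY was 6.05 ± 1.71 TPM (SD, n = 6). The limma adjusted p was 2.14e-06, and no fold is given against a group listed at 0. Ccl20 passed the filter of at least 1 TPM in at least 4 libraries through the EY libraries alone. Like Ccl20, 57 genes of the table were at 0 throughout N, and 5 of these averaged at least 5 TPM in EY. As each gene of the table had a value over 0 in 6 or more of the 10 libraries, a gene present in N only could not appear. Of 14 genes that every cell uses, 0 were listed at 0 in any library.

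Cxcl2 was close to the filter in both genotypes. It was listed at 1.04 and 0.752 TPM in EY3960, 0.904 and 0.845 TPM in EY4028, and 0.818 and 1.38 TPM in EY4174. The N libraries had 0.658, 0.686, 1.63 and 1.21 TPM, and the EY values lay within this range. Means were 0.958 ± 0.231 TPM over EY (SD, n = 6) and 1.05 ± 0.465 TPM over N (SD, n = 4). The difference was -0.04 ± 0.16 (SE, 95% interval -0.40 to 0.31, limma adjusted p 0.870), and 0.00 without the fourth N library (limma adjusted p 0.995). The interval holds differences of moderate size in either direction. Cxcl1 and Cxcl2, neighbors on chromosome 5 that share the GGAATTTCC motif, thus differed by a wide margin in level in every library.

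Cxcl3 was split among the EY lines rather than between the genotypes. It was listed at 0 and 0.0882 TPM in EY3960, 61.7 and 58.9 TPM in EY4028, and 0.400 and 0.523 TPM in EY4174. The N libraries had 54.2, 47.2, 58.6 and 81.1 TPM. The EY4028 libraries lay inside the range of N, and the other 4 EY libraries lay far below it. The mean over EY, 20.3 ± 31.01 TPM (SD, n = 6) against 60.3 ± 14.7 TPM in N (SD, n = 4), describes no single line. The EY against N difference was -3.73 ± 1.46 (SE, 95% interval -7.08 to -0.37, limma adjusted p 0.1003) and did not pass the test. It was -5.60 without line EY4028, -2.67 without line EY3960 and -2.91 without line EY4174. These values are a description, since the levels of the lines were known when Cxcl3 was chosen. Without the fourth N library the EY against N difference was -3.58 (limma adjusted p 0.166). With 0.1 added in place of 1 it was -5.15 (limma adjusted p 0.108), so its size depends on the added value.

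**Figure D1:**
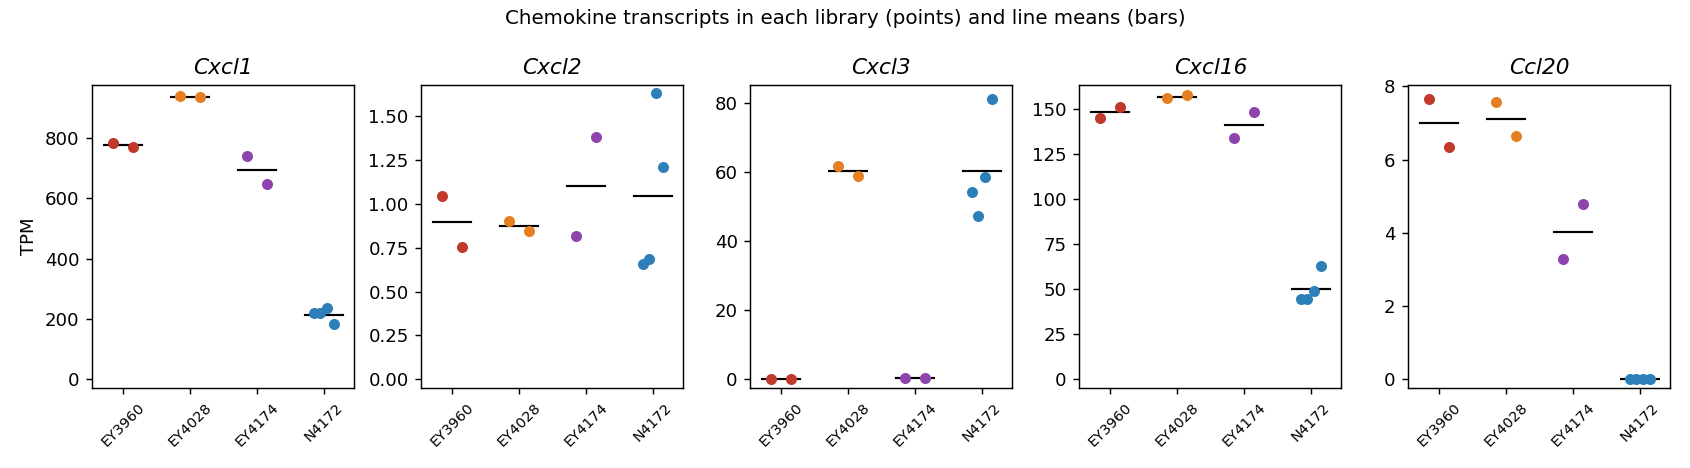
TPM of each chemokine (vertical axis, linear, a separate scale for each gene) in the 2 libraries of each EY line and the 4 libraries of N4172, with points for libraries and bars for line means. Cxcl1 and Cxcl16 are higher in all 3 EY lines than in N, Ccl20 is at 0 in N, Cxcl2 overlaps, and Cxcl3 is present in EY4028 and N and close to 0 in EY3960 and EY4174.

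A gene was called at a limma adjusted p under 0.01 with an absolute difference over 1, and by this rule 3 of the 5 members were called, Cxcl1, Cxcl16 and Ccl20, all higher in EY. Over the 11630 genes tested, 413 (3.55%) were called in either direction and 215 (1.85%) were called higher. The 2 genotypes did not overlap for 2370 genes (20.4%), and for the same 3 members. The members were chosen with earlier results known, and Ccl20 could pass the filter only by being high in EY, so that this count describes the genes and is no test of them. With the libraries averaged to 3 EY lines and 1 N line, none of the 3 passed, with limma adjusted p of 0.0538 for Cxcl1, 0.0451 for Cxcl16 and 0.0763 for Ccl20, and 2 of all tested genes were called. The median difference over all tested genes was 0.03.

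**Figure D2:**
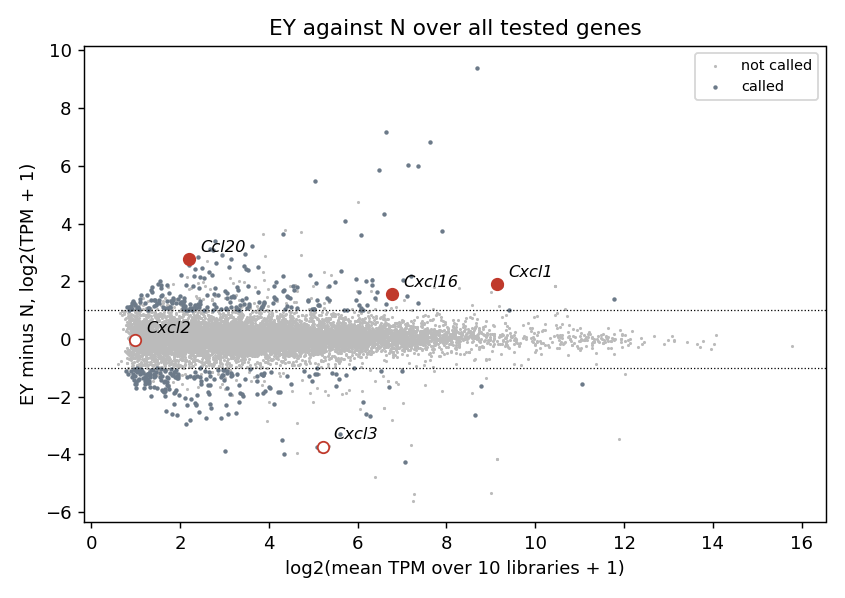
EY minus N difference on log2(TPM + 1) (vertical axis) against the log2 of the mean TPM plus 1 over 10 libraries (horizontal axis) for the 11630 tested genes, with called genes in dark gray and dotted lines at 1 and -1. Filled red points are the called members and open red points Cxcl2 and Cxcl3. Cxcl1 lies at 1.89 among the highly expressed genes. The heights of Ccl20, listed at 0 in N, and of Cxcl3, near 0 in EY3960 and EY4174, depend on the added 1.

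The EY lines were then compared with each other. Between lines, 675 of the tested genes (5.8%) were called. The split of Cxcl3 between EY4028 and the other EY lines was known when the gene was chosen and is given as a description. Cxcl3 ranged over 5.88 between the highest and lowest line mean, or 8.78 with 0.1 added in place of 1. Its line means were 60.3 TPM in EY4028, 0.461 TPM in EY4174 and 0.0441 TPM in EY3960. Cxcl1 ranged over 0.44, with the order EY4028, EY3960, EY4174 and an adjusted p of 0.0150 by the limma F test. Ccl20 ranged over 0.70 (limma F test, adjusted p 0.0409), with line means of 7.11 TPM in EY4028, 7.002 TPM in EY3960 and 4.03 TPM in EY4174. Neither passed the threshold. Cxcl16 and Cxcl2 ranged over 0.15 each, with adjusted p of 0.273 and 0.742 by the limma F test.

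Each EY line was also set against N, with the same 4 N libraries in each comparison. Of all tested genes, 819 (7.04%) were called in EY3960, 668 (5.74%) in EY4028 and 576 (4.95%) in EY4174. Cxcl1 was called in each line. Its difference from N was 1.86 in EY3960 (limma adjusted p 2.89e-07), 2.13 in EY4028 (1.43e-07) and 1.69 in EY4174 (1.08e-06), which correspond to TPM ratios of 3.61, 4.36 and 3.22. Cxcl16 was called in each line as well, with differences of 1.55 in EY3960 (limma adjusted p 7.50e-06), 1.64 in EY4028 (7.34e-06) and 1.48 in EY4174 (1.71e-05). Ccl20 was called in each line, with limma adjusted p of 1.85e-07 in EY3960, 2.42e-07 in EY4028 and 2.12e-06 in EY4174. As Ccl20 was at 0 throughout N and entered the fit through the EY libraries alone, these calls add nothing to its values.

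The CXC ligands Cxcl3 and Cxcl2 behaved otherwise. The low level of Cxcl3 in EY3960 and EY4174 was known beforehand, and its level in N was not part of that choice. The values of Cxcl3 against N are therefore given as a description. Against N, Cxcl3 fell by 5.85 in EY3960 (limma adjusted p 2.86e-09) and fell by 5.36 in EY4174 (limma adjusted p 9.42e-09). In EY4028 it was at 0.03 from N (95% interval -0.37 to 0.42, limma adjusted p 0.920). The contrast of EY4028 with the other lines repeats the known split. With 0.1 added in place of 1, Cxcl3 was at -8.75 from N in EY3960 and -6.73 in EY4174. The sizes in these lines thus depend on the added value. Cxcl2 did not pass in any line, with differences of -0.09 in EY3960, -0.10 in EY4028 and 0.05 in EY4174 and limma adjusted p of 0.800, 0.758 and 0.879. Without the fourth N library these were -0.04, -0.05 and 0.10 (limma adjusted p 0.906, 0.868 and 0.748). Without that library, Cxcl1 and Cxcl16 were still called in each line, as was Ccl20, with the limit given above for its calls. Cxcl3 was still called in EY3960 and EY4174, and its difference in EY4028 was 0.18 (limma adjusted p 0.250).

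**Figure D3:**
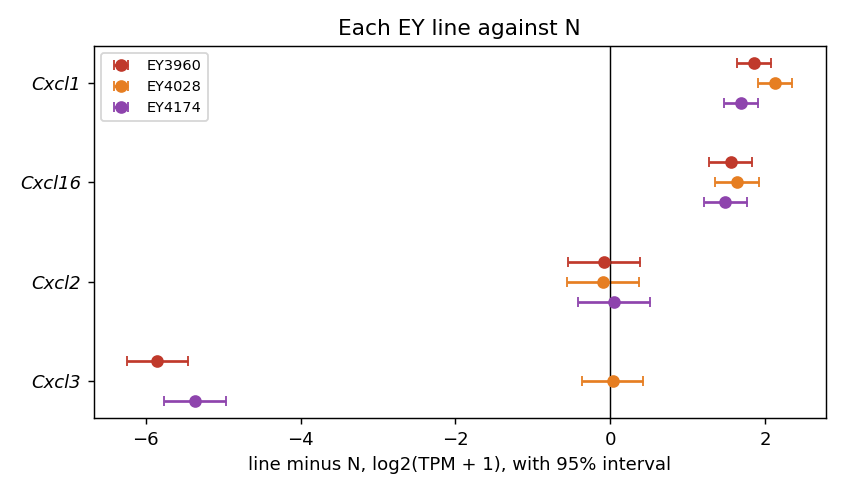
Difference of each EY line from N on log2(TPM + 1) (horizontal axis) for Cxcl1, Cxcl16, Cxcl2 and Cxcl3, with points for the estimates and bars for 95% intervals from limma. The intervals of Cxcl1 and Cxcl16 lie above 1 in all 3 lines, and those of Cxcl2 cross 0. Cxcl3 is near 0 in EY4028 and below -4 in EY3960 and EY4174, by a size that depends on the added 1. Ccl20 is left out because it is listed at 0 in N.

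TPM allow levels to be ordered between genes. In N, the order by mean was Cxcl1, Cxcl3, Cxcl16, Cxcl2 and Ccl20, and the ranges of Cxcl3 (47.2 to 81.1 TPM) and Cxcl16 (44.5 to 62.9 TPM) overlapped. In EY4028, Cxcl1 was followed by Cxcl16, Cxcl3, Ccl20 and Cxcl2, with no overlap between neighbors in this order. In EY3960 and EY4174, Cxcl3 was the lowest of the 5. Cxcl1 thus led in all 4 lines, whereas the place of Cxcl3 depended on the line.

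Cxcl3, Cxcl1 and Cxcl2 lie in a cluster of CXC genes on chromosome 5, in the RefSeq order Cxcl5, Ppbp, Pf4, Cxcl3, Cxcl15, Cxcl1 and Cxcl2. Of these, Ppbp (the precursor of a CXCR2 ligand stored in platelets) was far above Cxcl1, at 5911 and 5537 TPM in EY3960, 3427 and 3503 TPM in EY4028, and 1611 and 1438 TPM in EY4174. The N libraries had 1895, 1929, 1916 and 4802 TPM, so that the groups overlapped. Ppbp did not pass between genotypes (0.37, limma adjusted p 0.621) and was called between EY lines (range 1.91, limma F test, adjusted p 1.87e-05). Cxcl5, another CXCR2 ligand, was listed at 69.4 and 74.2 TPM in EY3960, 214 and 228 TPM in EY4028, 53.8 and 52.4 TPM in EY4174, and 51.7, 49.5, 53.6 and 147 TPM in N. It did not pass between genotypes (0.49, limma adjusted p 0.560) and was called between EY lines (range 2.04, limma F test, adjusted p 6.49e-06). Pf4, the platelet factor, ranged from 0.612 to 6.57 TPM in EY and from 1.35 to 2.48 TPM in N, was called between EY lines (range 1.94, limma F test, adjusted p 0.00269), and was called in EY3960 against N (1.18, limma adjusted p 0.00147). Without the fourth N library, which was high for Ppbp and Cxcl5, neither was called between genotypes (0.70 and 0.86, limma adjusted p 0.325 and 0.281). In single lines Ppbp was then called in EY3960 (1.58, limma adjusted p 1.28e-08, against 1.25 and 0.0478 with that library) and Cxcl5 in EY4028 (2.08, limma adjusted p 5.36e-09, against 1.704 and 0.0205).

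The genes of the cluster did not share an order of lines. Ppbp and Pf4 were highest in EY3960, where Cxcl3 was close to 0. Cxcl5, Cxcl3 and Cxcl1 were highest in EY4028. Of the 6 genes of the cluster in the table, Cxcl1 was the one called between EY and N. The genes on the other side, Mthfd2l, Epgn, Ereg and Areg, were present in every line. Over the 10 libraries, Mthfd2l lay between 11.4 and 22.1 TPM and Epgn between 123 and 222 TPM. Ereg and Areg varied with line and were highest in EY3960, as Ppbp and Pf4 were. Ereg was at 90.3 and 95.5 TPM in EY3960, 51.2 and 52.6 TPM in EY4028, and 23.4 and 20.4 TPM in EY4174. Areg was at 190 and 201 TPM, 103 and 102 TPM, and 92.8 and 92.8 TPM in the same lines. In N, Ereg did not exceed 22.7 TPM and Areg did not exceed 101 TPM. This comparison with neighboring genes was chosen after the values were seen.

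**Figure D4:**
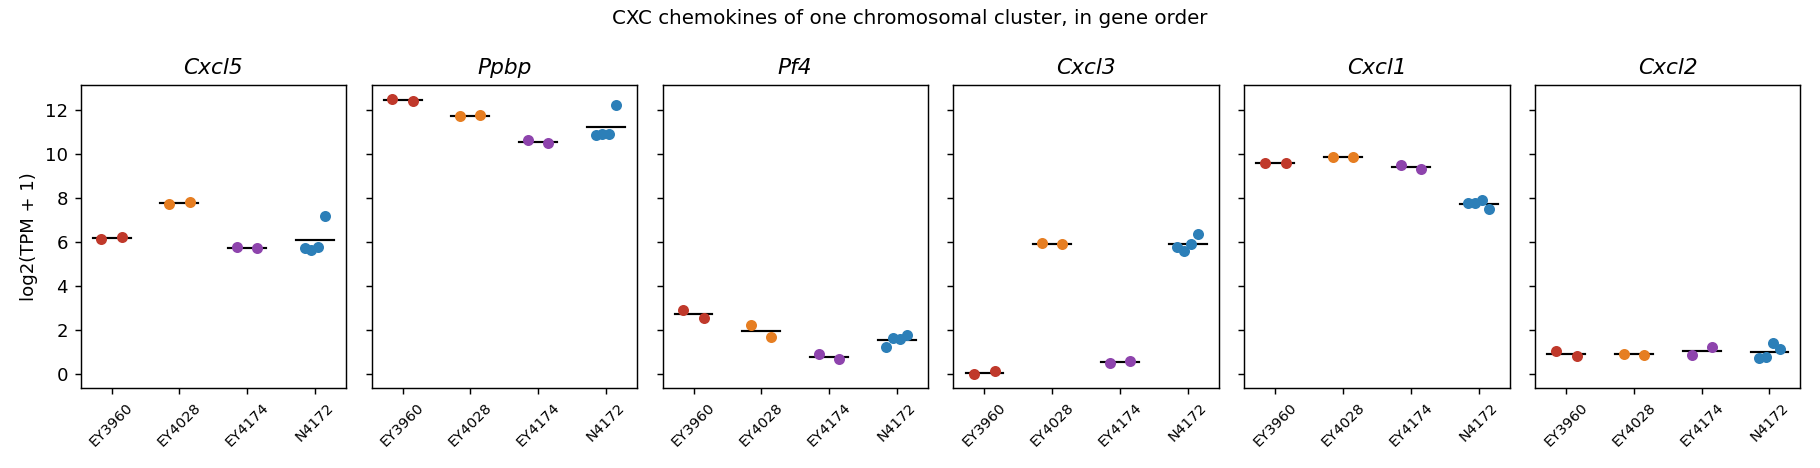
Levels on log2(TPM + 1) (vertical axis, shared) of 6 CXC chemokine genes of the chromosome 5 cluster in gene order, with points for libraries and bars for line means. Cxcl1 separates the 3 EY lines from N, Cxcl3 separates EY4028 and N from the other lines, and the fourth N library lies above the other N libraries for Cxcl5 and Ppbp.

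The genes whose pattern over the 10 libraries was most like that of each member were listed by Pearson correlation of log2(TPM + 1), among 7629 genes that averaged at least 5 TPM, with predicted genes left out. The libraries share 4 lines, and the correlations describe these samples only. For Cxcl1, they were Aen (0.995), an exonuclease induced by p53, Gypc (0.994) and Pard6b (0.993). Gypc averaged 9.79 TPM in EY and was at 0 throughout N. For Cxcl16, they were Cdkn2aipnl (0.996), Cops6 (0.995), a subunit of the COP9 signalosome, and Crip2 (0.988). For Ccl20, they were Rhox5 (0.996), a homeobox gene of the germline, Lgals1 (0.994), which encodes galectin-1, and Vmn2r97 (0.992). Cxcl2, whose levels varied little, had lower values, with Trappc4 (0.833), Bcl7b (0.830) and Lipt1 (0.823).

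For Cxcl3, the most similar genes were Eno1b (0.997), an enolase gene, Gnai1 (0.975), which encodes a G protein subunit, and Pclaf (0.972), which encodes a PCNA-binding protein. Eno1b was listed at 0.124 and 0.0448 TPM in EY3960, 114 and 118 TPM in EY4028, 0.290 and 0.149 TPM in EY4174, and 143, 131, 148 and 170 TPM in N. Like Cxcl3, it was thus near 0 in the same 2 EY lines and present in EY4028 and N. Gnai1 had the same 2 lines lowest over a small range, from 24.5 to 38.4 TPM. Pclaf lay between 1.51 and 3.55 TPM in EY3960 and EY4174, at 24.3 and 23.8 TPM in EY4028 and between 14.2 and 16.02 TPM in N. A search made after the values were seen, over all tested genes, asked which averaged at least 5 TPM in EY4028 and in N and stayed under 1 TPM in every EY3960 and EY4174 library. It found 5 genes, Cxcl3, Eno1b, Clec2f and the predicted genes Gm4366 and Gm4735. Eno1b closely resembles Eno1, and its own level is uncertain for that reason.

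**Figure D5:**
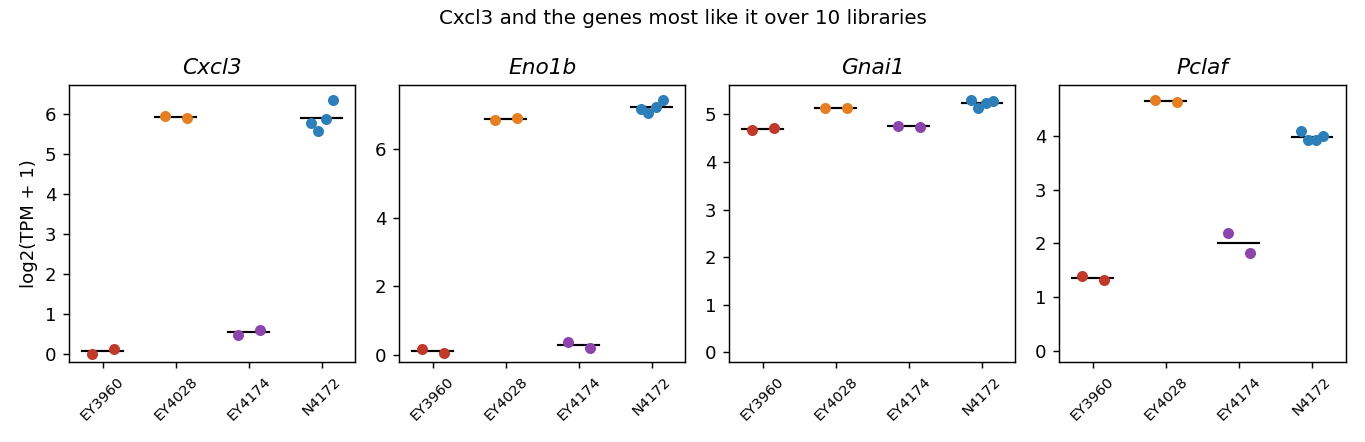
Levels on log2(TPM + 1) (vertical axis, a separate scale for each gene) of Cxcl3, Eno1b, Gnai1 and Pclaf, with points for libraries and bars for line means. Eno1b is near 0 in EY3960 and EY4174 as Cxcl3 is, while Gnai1 and Pclaf have the same 2 lines lowest without being absent.

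The receptors of these chemokines were low. Cxcr2, the receptor of CXCL1, CXCL2 and CXCL3, was at 0.709 to 1.14 TPM in EY and 0.343 to 0.879 TPM in N and did not reach the filter. Cxcr6, the receptor of CXCL16, did not exceed 0.234 TPM in any library. Cxcr1 and Ccr6 were not analysed here. Among 22 receptors listed, 10 were in the table and 1 was tested, the scavenging receptor Ackr3. Its difference was -0.83 (limma adjusted p 0.0930), and -0.55 without the fourth N library (limma adjusted p 0.206). Against N it was called in EY4174, where it fell by 1.55 (limma adjusted p 0.00409), and at -1.28 without that library (limma adjusted p 3.88e-06).

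Among the other chemokines, few were measured. Of 11 other CXC genes listed, 5 were in the table, 4 were tested and 0 were called by limma, with a median difference of 0.32. Cxcl14, a chemokine of resting epithelium, is named after its value was seen and moved against the median. It was listed at 1.15 and 0.835 TPM in EY3960, 0.305 and 0.573 TPM in EY4028, 0.180 and 0.0825 TPM in EY4174, and between 0.909 and 1.53 TPM in N. Its difference was -0.54 (limma adjusted p 0.0723), and in EY4174 it was -0.92 against N (limma adjusted p 0.00214). Of 22 CC, C and CX3C genes, the table held 7, 3 were tested and 0 were called by limma, with a median of -0.11. Ccl2, a monocyte attractant, averaged 18.5 ± 1.90 TPM over EY (SD, n = 6) and 10.1 ± 3.52 TPM over N (SD, n = 4). The genotypes did not overlap for Ccl2, with a difference of 0.88 (limma adjusted p 0.00892) that did not exceed 1. It was 1.02 without the third N library (limma adjusted p 0.00826) and 0.61 without the fourth (limma adjusted p 0.00271). Ccl27a, a skin chemokine, was at -0.21 (limma adjusted p 0.752) and at 0.25 without the fourth N library (limma adjusted p 0.549). Ccl25 was at -0.11, and at -0.04 without that library, and did not pass. Ccl6 was below the filter and reached 1.38 TPM.

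Genes that act upstream of these chemokines were read from lists of 103 genes in all with the chemokines and receptors, and the table held 70 of them, 54 of which were tested. Of these, 2 (3.7%) were called, both higher, against 3.55% over all tested genes, with a median difference of 0.12. Over all tested genes, 1377 (11.8%) had a limma adjusted p under 0.01, whatever their difference. Among 15 transcription factors, all tested, 6 had a limma adjusted p under 0.01 and 1 was called, with a median of 0.45. The called factor was Yap1, at 44.1 ± 9.54 TPM over EY (SD, n = 6) and 18.7 ± 1.79 TPM over N (SD, n = 4), a difference of 1.17 (limma adjusted p 1.73e-04). It was 0.99 without line EY4174. Whether its reads include those of the transgene was not tested. Junb, an AP-1 factor, had 53.9 TPM in EY and 35.1 TPM in N, a difference of 0.62 (limma adjusted p 8.12e-04), and Fosl1 had a difference of 0.45 (limma adjusted p 0.0796), or 0.21 without the fourth N library (limma adjusted p 0.0822).

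Of 9 regulators of chemokine mRNA stability, all tested, 2 had a limma adjusted p under 0.01, against 11.8% of all tested genes, and 1 was called, with a median of 0.23. The called gene was Zc3h12a, which encodes an RNase that degrades inflammatory mRNAs, at 3.403 ± 1.00 TPM over EY (SD, n = 6) and 1.01 ± 0.375 TPM over N (SD, n = 4). Its difference was 1.12 (limma adjusted p 0.00128), and 0.94 without line EY4028 (limma adjusted p 0.00574). The call was also lost with line as a random block, an estimated correlation (limma adjusted p 0.0409). With 0.1 added in place of 1, the difference of Zc3h12a was 1.66 (limma adjusted p 0.00109), so its size depends on the added value. Elavl1, an mRNA-stabilizing protein, had a difference of 0.23 (limma adjusted p 0.0455) and Srsf1 of -0.06 (limma adjusted p 0.739), or -0.19 without the fourth N library (limma adjusted p 0.154). Among 22 receptors and adaptors upstream of chemokine induction, 20 were tested, 2 had a limma adjusted p under 0.01 and 0 were called, with a median of 0.06. Chuk, a kinase of the NF-kB pathway, Il17rc, a subunit of the interleukin-17 receptor, and Map3k7 had differences of -0.18, -0.11 and 0.17, with limma adjusted p of 0.156, 0.709 and 0.314. Il17rc was at -0.01 without the fourth N library (limma adjusted p 0.976).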

How the data were processed

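Poly(A) RNA of 6 EY and 4 N cultures was sequenced by the authors. The submitters' processing notes name STAR 2.7.9, SAMtools 1.7, HTSeq 0.13.5, DESeq2 1.34.0 and GRCm39, and the methods also describe Kallisto with a human transcriptome for enrichment. The deposited table gives TPM per gene symbol, computed by the authors, with no build, and its columns sum to between 998358 and 998951. Which of these steps made it is not given in the sources used here. TPM are not counts, so limma 3.58.1 (R 4.3.3, trend and robust) was fitted to log2(TPM + 1) over the 11630 genes that reached 1 TPM in 4 or more libraries. Benjamini-Hochberg adjustment ran over all of them, and genes were called at an adjusted p under 0.01 and an absolute difference over 1. EY was compared with N, the 3 EY lines with each other (F test), and each line with N in a model of 4 line means with 6 residual degrees of freedom. Scripts were tested on simulated data. The members and gene lists were chosen with earlier results of these data known. Named genes were the members, called list genes, up to 3 of the highest genes per list, chemokines under the filter that reached 1 TPM in a library, and the 3 genes most correlated with each member. Sequences came from RefSeq (GRCm38.p6) and GENCODE M21 tables, read with Biopython 1.88, and no coordinates were converted. Alternatives were a pseudocount of 0.1, other filters, quantile and median-ratio scaling, a replicate block, leaving out libraries or lines, a random line block and line means.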

Additional observations from a re-analysis of the deposited data

Results flagged for a closer look

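In 45 groups of values examined for a library far from the rest, 6 stood out, where chance gives about 1 in 20, or 2.2. In 5 of them it was the fourth N library. Ppbp was at 4802 TPM there against 1929 TPM in the nearest N library, Cxcl5 at 147 against 53.6 TPM, Ccl27a at 33.4 against 10.6 TPM and Ackr3 at 72.9 against 35.7 TPM, all higher than the other N libraries. Srsf1 was lower there, at 157 against 218 TPM. In the second library of EY4174, Adam10 was lower than in the other EY libraries, at 19.7 against 25.8 TPM. None of the 5 chemokines had such a library in either genotype.

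Cxcl3 differed between the EY lines (limma F test, adjusted p 7.58e-07), with a range of 5.88 between line means. This split was known when the gene was chosen, so that the p is no independent evidence of it. EY4028 was at the level of N, and the other lines were far below it.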

How the results depend on the processing

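Most results stayed the same, in 480 of the values recomputed. For a difference, this means that its direction and its side of the threshold were kept. For a count of genes, it means a change of at most 1.5 times. Of the rest, 16 counts moved by over 1.5 times, 16 differences changed sign, 3 lost and 1 gained a call. The 480 include fits between lines without an N library, which could not change because N does not enter them. Line means, 3 EY against 1 N, left 2 genes called in all and 0 in the lists, with Cxcl1 at 1.89 (limma adjusted p 0.0538), Cxcl16 at 1.56 (0.0451) and Ccl20 at 2.78 (0.0763, a value set by the pseudocount). A random line block left 203 and 1 (Yap1). Requiring 1 TPM in every library left Cxcl2, Cxcl3 and Ccl20 untested and gave 216 genes between EY and N, 1 in the lists, 403 between lines, 455 in EY3960, 371 in EY4028 and 317 in EY4174. A pseudocount of 0.1 gave 4 list genes. Without line EY4028 the lists gave 1, and Cxcl3 passed both thresholds at -5.60, in a comparison without the line known to hold it. The difference of Cxcl3 between EY4028 and N became -0.0594 under quantile normalization and -0.0841 under median-ratio scaling. The causes were not tested.

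Sample numbers did not pair the libraries, since the differences between samples 1 and 2 correlated between lines at -0.148 to 0.0518 over 6 pairs of lines. Only N has samples 3 and 4. With the number as a replicate block, EY was therefore in effect compared with N samples 1 and 2 alone. This gave 221 genes and 1 list gene (Tead4) called between EY and N. Yap1 and Zc3h12a had limma adjusted p of 0.0137 and 0.0147. Cxcl2, within its error of 0, moved to 0.22 in EY, 0.18 in EY3960 and 0.16 in EY4028. The part of the left-out N samples in these changes was not tested separately. Cxcl1 and Cxcl16 kept their calls under this block. Ccl20 did so too, but it was at 0 throughout N and passed the filter through EY alone, so its call adds nothing to its values.

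Leaving out single libraries kept the calls of Cxcl1 (1.81 to 1.95) and Cxcl16 (1.504 to 1.67) in EY against N, and left Cxcl3 uncalled (-4.48 to -3.29). Ccl20 also kept its call, to which the same limit applies. These fits gave 341 to 445 genes between EY and N and 2 to 3 in the lists. Between lines, where only EY libraries enter, leaving out an EY library gave 433 to 661 genes against 675 with all. Cxcl2 ranged from -0.137 to 0.0849 in EY, from -0.197 to 0.0438 in EY3960, from -0.192 to 0.0299 in EY4028 and from -0.144 to 0.247 in EY4174, and Cxcl3 in EY4028 from -0.0770 to 0.179. Depth is unknown, which limits most the values near the floor. These include Cxcl2 near 1 TPM, Cxcl3 in EY3960 and EY4174, Ccl20 at 0 in N, and Zc3h12a near 1 TPM in N.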
